A study of Mus musculus with 35 samples.

Results

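The genes described here carry dietary fat out of the enterocyte: they encode enzymes that rebuild triacylglycerol and proteins that assemble the triacylglycerol into chylomicrons and export them. The set consisted of 10 genes of the 18193 named on the array, chosen by name as Mogat2, Dgat1, Dgat2, Mttp, Sar1b, Apob, Apoa1, Apoa4, Apoc2 and Apoc3. They were represented by 18 probesets, and all 18 passed the expression limit, a mean signal above 32 (5 on the log2 scale) in at least 1 of the 8 groups. Where a gene had several probesets, the one of highest mean is called the main probeset. Values of each of the 10 genes are those of its main probeset unless another is named.

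The study used 35 arrays, each hybridised with total RNA of the whole length of the small intestine from 1 male mouse of 4 months. The mice were wild-type (129S1/SvImJ) or lacked the nuclear receptor PPARα (129S4/SvJae), so that genotype and substrain cannot be told apart. After 2 weeks on a modified AIN76A diet and a 4 h fast, every mouse received 400 μl by oral gavage and was killed 6 h later. The diet held olive oil, mainly oleic acid, in place of corn oil, so that all mice had eaten this fatty acid before the gavage. The gavage was WY14643, a synthetic PPARα agonist given at 0.1% in 0.5% carboxymethyl cellulose (4 wild-type and 4 PPARα-null mice), or a synthetic triacylglycerol of a single fatty acid: oleic acid (OA, C18:1, 4 and 4 mice), eicosapentaenoic acid (EPA, C20:5, 5 and 5 mice) or docosahexaenoic acid (DHA, C22:6, 5 and 4 mice). The WY14643 mice thus received no fat in the gavage, and the agonist and the fat load change together between them and the other mice. Mice given the carrier alone were not analysed here.

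Absorbed monoacylglycerol and fatty acids are joined again to triacylglycerol at the endoplasmic reticulum, by a monoacylglycerol acyltransferase (Mogat2) followed by the diacylglycerol acyltransferases (Dgat1 and Dgat2). The microsomal triglyceride transfer protein (Mttp) loads this lipid onto apolipoprotein B (Apob), and the particle leaves for the Golgi in COPII-coated carriers that depend on the small GTPase Sar1b. Apolipoproteins A-I, A-IV, C-II and C-III (Apoa1, Apoa4, Apoc2 and Apoc3) ride on its surface, where C-II activates and C-III inhibits lipoprotein lipase. PPARα binds DNA together with RXR at direct repeats of the hexamer AGGTCA, and fatty acids are among its ligands.

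The genes lie apart on the genome except for a pair of clusters. Apoa1, Apoc3 and Apoa4 are neighbours on chromosome 9, Dgat2 and Mogat2 are neighbours on chromosome 7, and Sar1b on chromosome 11 lies next to Sec24a, a gene of the COPII coat. Promoter sequence from RefSeq (GRCm38.p6) was matched for 6 of the 10 genes, Apoa1, Apoa4, Apob, Apoc2, Mttp and Sar1b, and was not used here for Apoc3, Dgat1, Dgat2 and Mogat2. The 250 bases before the start of Apoc2, Mttp and Sar1b are shown because these 3 genes moved together with OA, as described below. Capitals mark a match to 1 of the 5 motifs searched on both strands.

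Apoc2 (chr7:19677942-19678191, minus strand): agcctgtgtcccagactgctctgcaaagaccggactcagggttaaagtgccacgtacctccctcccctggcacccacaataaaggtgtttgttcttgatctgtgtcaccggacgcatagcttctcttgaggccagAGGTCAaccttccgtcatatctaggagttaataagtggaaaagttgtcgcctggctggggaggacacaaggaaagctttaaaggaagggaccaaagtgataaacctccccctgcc

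Mttp (chr3:138143419-138143668, minus strand): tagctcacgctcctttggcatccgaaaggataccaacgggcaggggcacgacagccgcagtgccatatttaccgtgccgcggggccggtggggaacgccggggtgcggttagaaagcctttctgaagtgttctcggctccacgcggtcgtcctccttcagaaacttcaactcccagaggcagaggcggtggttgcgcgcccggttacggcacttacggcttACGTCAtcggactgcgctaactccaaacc

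Sar1b (chr11:51763413-51763662, plus strand): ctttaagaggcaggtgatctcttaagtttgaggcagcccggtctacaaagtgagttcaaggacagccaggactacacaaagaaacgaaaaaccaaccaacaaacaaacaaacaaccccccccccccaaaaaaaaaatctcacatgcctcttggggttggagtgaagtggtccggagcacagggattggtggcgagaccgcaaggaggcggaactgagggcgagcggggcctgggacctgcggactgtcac

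The capitals in Apoc2 are the nuclear receptor hexamer AGGTCA, which begins 115 bases before the start and occurs in 14.02% of 32851 mouse promoters of this length. Those in Mttp are the core of the cyclic AMP response element, TGACGT, read on the opposite strand and beginning 29 bases before the start, found in 6.47% of promoters. The Sar1b window held no match to any of the 5. Apob held a TATAAA box (12.4% of promoters) beginning 60 bases before its start. The direct repeat of the hexamer with a spacer of 1 base (DR1), which contains the hexamer by definition and occurs in 0.0335% of promoters, and the HNF4 motif CAAAGTCCA (0.384%) were in none of the 6 windows. These matches describe letters in the window and are not evidence of binding.

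The arrays were checked against their genotype labels. The probeset shared by Cyp4a10 and Cyp4a31, fatty acid hydroxylases induced by PPARα, read 8.15 to 12.75 on the wild-type arrays and 1.36 to 2.50 on the PPARα-null arrays, apart from 3 arrays that went against their label. These were the wild-type EPA replicate 5 (1.81), the PPARα-null EPA replicate 5 (9.91) and the PPARα-null OA replicate 1 (10.61). The 3 probesets of Ppara itself overlapped between the genotypes on the remaining arrays. On the probeset that ran from 5.60 to 9.58 in wild-type and from 4.32 to 6.56 in PPARα-null mice, the same 3 arrays read 4.82, 7.83 and 7.27, each outside the range of its label. The other 2 probesets put both EPA arrays outside the range of their label (8.14 and 10.29 on one, 5.54 and 7.93 on the other) and the OA array inside it (10.02 and 7.41). Those ranges pool the agonists. Within OA the array lay above the other PPARα-null mice (8.50 to 9.20 and 5.40 to 6.02) and above the wild-type mice (8.71 to 9.74 and 6.42 to 7.07). The 3 arrays were kept under their labels. Counts of called genes of the set that changed without them are given both ways, here or in the closing sections. Other values include them unless stated. Albumin lay between 2.33 and 4.38 on every array and the 3 erythrocyte markers on the array were not expressed, while all 10 pancreatic acinar markers on the array were expressed, although fat and pancreatic tissue had been removed from the intestines.

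The 10 genes gave strong signals, with means of the main probesets over all arrays from 9.79 (Apob) to 14.51 (Apoa1). Signals of different probesets depend on their probes and give no order between genes. Separate probesets of a gene ran together over the 35 arrays for Apoa1 (r = 0.94 to 0.96), Apoa4 (0.94), Dgat2 (0.89) and Mttp (0.84), all of them arrays of the same hybridisations. They did not for Apob (r = -0.23) or Dgat1 (r = -0.06), whose weaker probesets had means of 6.54 and 4.83. Apob had the widest range of group means, 1.54, and Mogat2 the narrowest, 0.21.

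**Figure D1:**
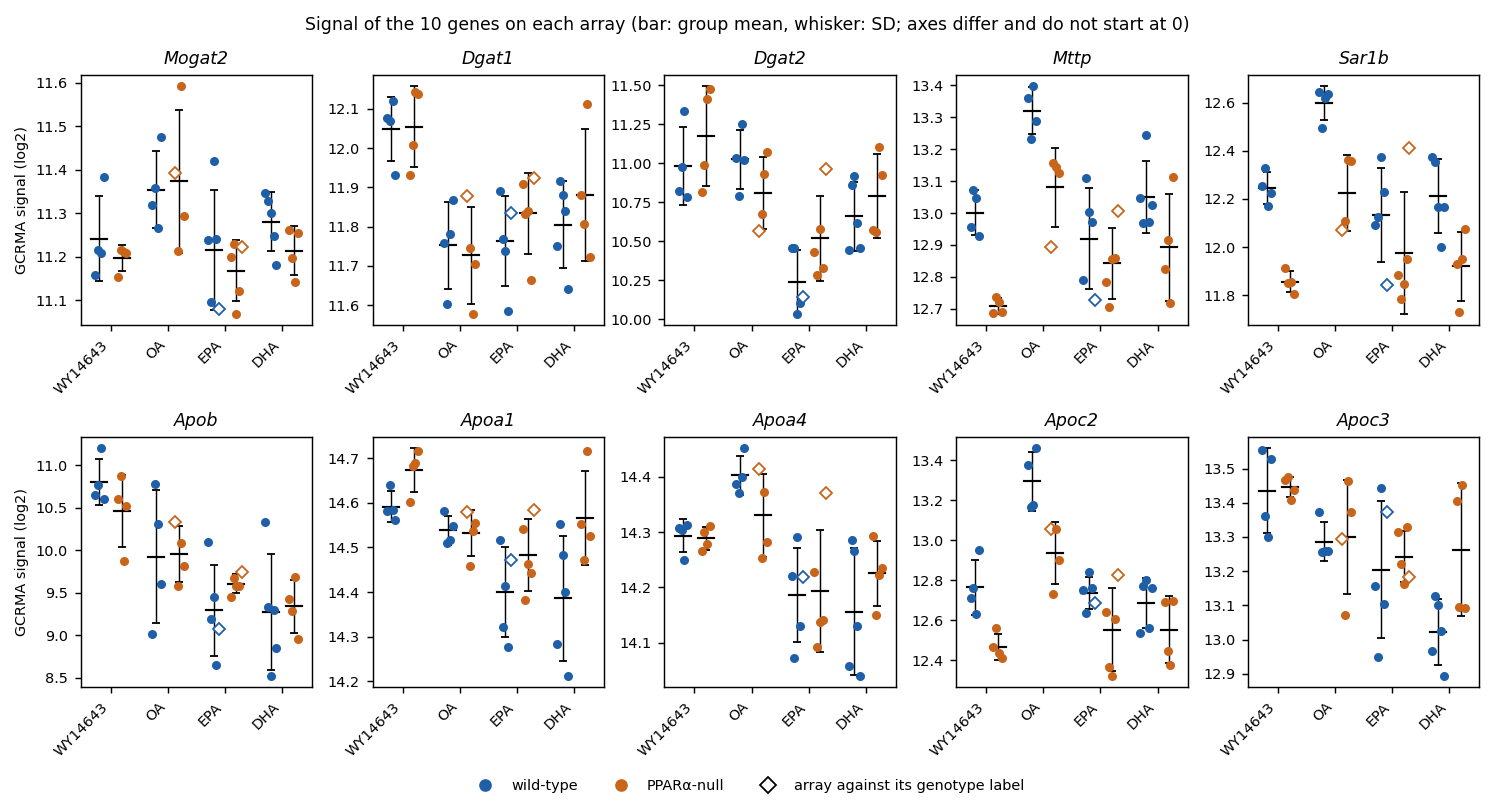
GCRMA signal (log2) of the main probeset of each of the 10 genes on every array, by gavage, for wild-type and PPARα-null mice, with the group mean as a bar, the SD as whiskers and the 3 arrays that went against their genotype label as open diamonds, on axes that differ between genes and do not start at 0. Apoc2 was highest in the OA mice of both genotypes, and Apob was highest in the WY14643 mice.

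The genotype comparisons asked which of these genes depended on PPARα under each agonist. Under WY14643, Mttp and Sar1b were 1.22-fold and 1.31-fold higher in wild-type mice, whereas with all arrays no gene of the set was called under OA, EPA or DHA. With all arrays the enzymes Mogat2, Dgat1 and Dgat2 and the apolipoproteins had no call under any agonist. Without the 3 arrays that went against their label, Sar1b was called under every agonist, Apoc2 under WY14643 and OA, and Apoa1 under DHA. The shares of all genes called were then 8.51% (WY14643), 2.07% (EPA), 9.62% (DHA) and 1.83% (OA). A call means that limma gave 1 or more expressed probesets of the gene an adjusted p under 0.05. Median differences, and differences of genes outside the set, take each gene on its expressed probeset of lowest p in that comparison. This probeset can differ from the main one, and the choice favours larger differences. RNA from whole intestine was measured, so that fewer cells of a type and less RNA per cell cannot be told apart.

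Under WY14643 2 of the 10 genes were called, where 7.56% of the 8626 expressed genes were. Sar1b, the GTPase that starts the COPII coat, read 12.25, 12.33, 12.17 and 12.23 in the wild-type and 11.91, 11.85, 11.86 and 11.81 in the PPARα-null mice. The groups did not overlap, and the difference was 0.39 (SE 0.108, limma adjusted p = 0.0233). Mttp read 12.96, 13.07, 13.05 and 12.93 in the wild-type and 12.69, 12.74, 12.72 and 12.69 in the PPARα-null mice, again without overlap (difference 0.29, SE 0.08, limma adjusted p = 0.0216), and its second probeset differed by 0.39 (limma adjusted p = 0.0281). Each call was lost in 4 of the 35 fits that left out 1 array, without wild-type replicate 2 or 3 or PPARα-null replicate 1 or 4 of this agonist for Mttp (limma adjusted p up to 0.0868), and without wild-type replicate 1 or 2 or PPARα-null replicate 3 or 4 for Sar1b (up to 0.0876). Apoc2 read 12.71, 12.76, 12.63 and 12.95 against 12.46, 12.56, 12.43 and 12.41, which did not overlap either, but its difference of 0.30 missed the threshold (limma adjusted p = 0.0676, and 0.0476 without the 3 arrays). Enteroendocrine markers were lower in these wild-type mice (4 of 8, 3 without the 3 arrays, summed signal on the linear scale 5791 to 8123 beside 8203 to 9533), and of 8 duodenum and jejunum markers 2 were higher and 3 lower (median -0.34, summed signal 21881 to 24535 beside 24428 to 26896). The duodenum and jejunum list, here and below, holds Cyp2c65, Slc5a1 and Slc40a1. The paper reports these genes as regulated in a PPARα-dependent way under some or all of the agonists. Counts from this list therefore need not mark gut region. The part of the enteroendocrine and the duodenum and jejunum markers in the Mttp and Sar1b calls was not tested. With each gene on its probeset of lowest p, the median difference over the 10 genes was 0.04, and that over all expressed genes was -0.07.

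Under the other agonists no call was made, and the means of these 3 genes were again higher in wild-type mice. Under OA 0 of the 10 genes were called, where 0.498% of all genes were, and 3 had an unadjusted p under 0.05 (15.04% of all genes) and also under 0.01 (5.30% of all genes). Wild-type Sar1b read 12.64, 12.49, 12.62 and 12.64 and PPARα-null Sar1b 12.07, 12.11, 12.36 and 12.36, a difference of 0.37 (limma adjusted p = 0.12). The difference was 0.36 for Apoc2 (limma adjusted p = 0.0935) and 0.24 for Mttp (limma adjusted p = 0.201), and the groups did not overlap for any of the 3. Groups without overlap were not counted over all genes, here or in other comparisons, so their absence of overlap is a description only. Without the 3 arrays, Apoc2 (0.40, limma adjusted p = 0.0372) and Sar1b (0.32, limma adjusted p = 0.046) were called, where 1.83% of all genes were.

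Under EPA limma called 0 of the 10 genes and 0% of all genes, and at an unadjusted p under 0.05 it gave 1 of the 10 (Apoc2) and 12.1% of all genes. Each genotype had 1 array against its label in this comparison. Sar1b read 12.09, 12.13, 12.38, 12.23 and 11.84 in wild-type and 11.88, 11.78, 11.85, 11.95 and 12.41 in PPARα-null mice, where the last value of each group is from such an array. Its difference was 0.16 (limma adjusted p = 0.636) with these arrays and 0.34 (limma adjusted p = 0.0155) without them, and the groups overlapped only with them. Sar1b was then the 1 gene of the set called, beside 2.07% of all genes.

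Under DHA limma called 0 of the 10 genes and 8.20% of all genes, and 4 of the 10 had an unadjusted p under 0.05 (27.4% of all genes), 3 of them also under 0.01 (13.3%). The surface apolipoproteins Apoa1 and Apoc3 had lower means in wild-type mice here, with differences of -0.18 (limma adjusted p = 0.0514) and -0.24 (limma adjusted p = 0.0924), and Sar1b a higher one (0.29, limma adjusted p = 0.0844). Without the 3 arrays Apoa1 (limma adjusted p = 0.047) and Sar1b (limma adjusted p = 0.0124) were called, where 9.62% of all genes were. Of 9 absorptive enterocyte markers 1 was higher and 4 were lower in wild-type mice under DHA, and of 8 duodenum and jejunum markers 2 were higher and 3 lower. Their part in these differences was not tested. With each gene on its probeset of lowest p, the median over the 10 genes was -0.10 under DHA, -0.02 under EPA and 0.04 under OA. The medians over all genes were -0.02, 0.00 and 0.01.

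**Figure D2:**
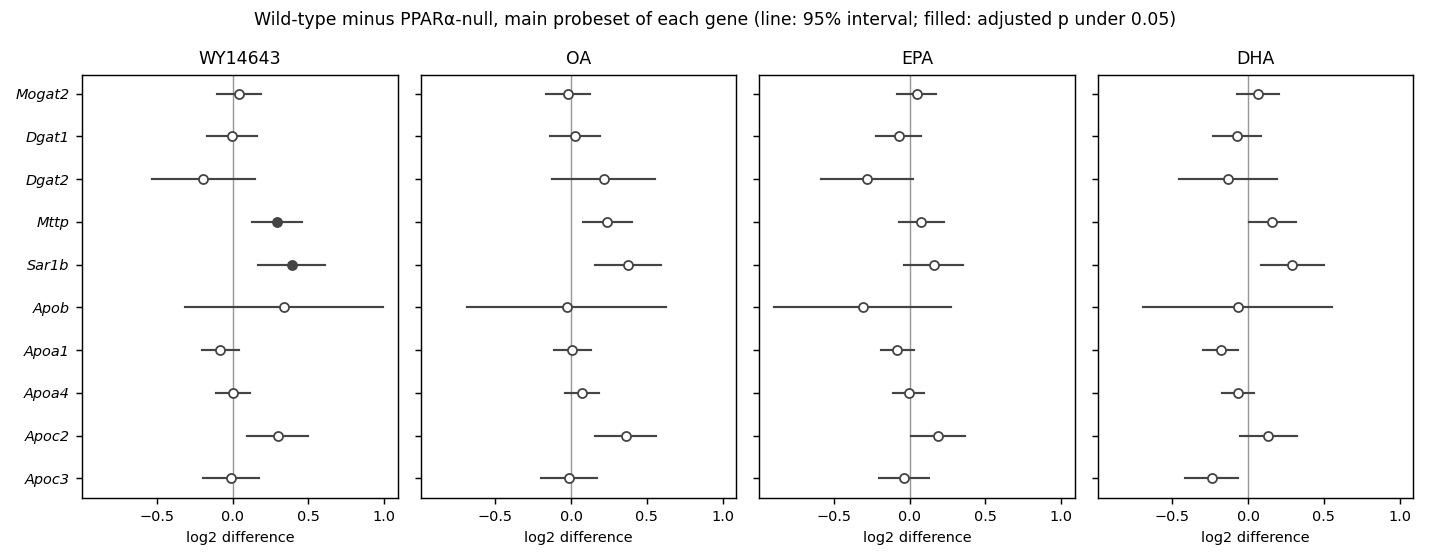
Level in wild-type minus level in PPARα-null mice (log2) for the main probeset of each gene under each agonist, with 95% intervals from limma over all 35 arrays and filled points where the adjusted p was under 0.05. Mttp and Sar1b under WY14643 are the filled points, and Sar1b lies above 0 in all 4 panels.

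Whether the genotype difference itself changed with the agonist was tested as an interaction for all 6 pairs of agonists, and limma called 0 of the 10 genes in each of them. Of all genes 1.30% were called for WY14643 against EPA, 0.580% for WY14643 against DHA, 1.30% for WY14643 against OA and 0% for the other 3 pairs. The lowest unadjusted p belonged to Dgat2 for EPA against OA (-0.49, limma adjusted p = 0.871) and to Apoa1 for DHA against OA (-0.19, limma adjusted p = 0.847), and no other gene had a p under 0.05. For Sar1b the genotype difference under WY14643 exceeded that under OA by 0.01, with a 95% interval from -0.30 to 0.32. The interval for Mttp ran from -0.18 to 0.28 and that for Apoc2 from -0.34 to 0.22. With 4 or 5 mice per group, changes within these intervals remain compatible with the data, so the lack of a call does not show equal genotype differences.

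Of the 38 calls over the 16 pairwise comparisons, 36 came from the 12 comparisons of agonists within a genotype and 2 from the 4 comparisons of genotypes. Over all genes the agonist comparisons called from 0.719% to 45.1% and the genotype comparisons from 0% to 8.20%. The split is therefore not read as particular to these genes. With OA, the genes Apoc2, Mttp and Sar1b were higher than with WY14643 in wild-type mice (1.45-fold, 1.25-fold and 1.28-fold) and were also called higher in PPARα-null mice. Against EPA and DHA the same 3 genes were higher with OA in wild-type mice. Apob and Dgat2 had their lowest group means after EPA or DHA, and Dgat1 its highest after WY14643, in both genotypes. All comparisons with WY14643 share the WY14643 arrays, and all those with OA share the OA arrays, so that their values are set side by side without a test across them.

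**Figure D3:**
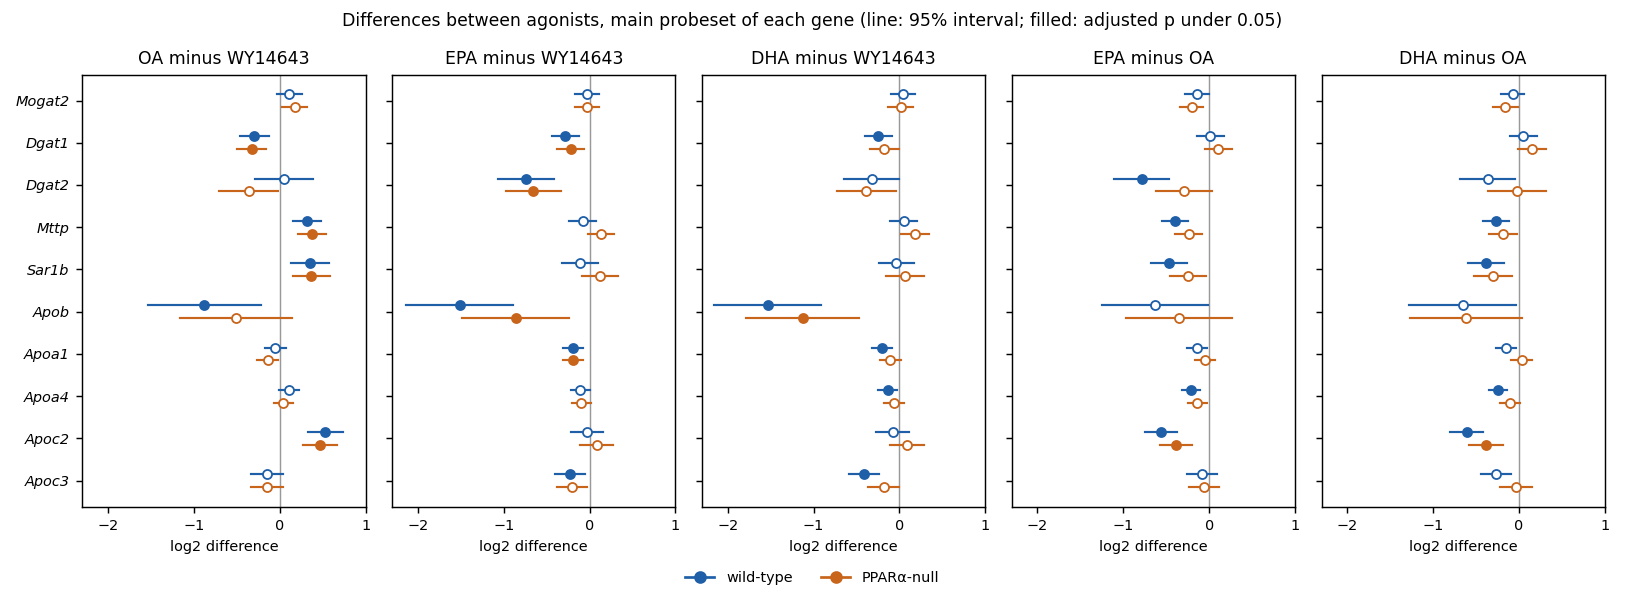
Difference between agonists (log2) in the main probeset of each gene, for wild-type and PPARα-null mice, with 95% intervals from limma over all 35 arrays and filled points where the adjusted p was under 0.05. Apoc2, Mttp and Sar1b lie above 0 for OA against WY14643 and below 0 for EPA and DHA against OA in both genotypes, and Apob has the widest intervals.

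In wild-type mice, OA against WY14643 gave calls for 5 of the 10 genes, 3 higher and 2 lower, where 33.8% of all genes were called (17.7% higher and 16.2% lower). Apoc2, the cofactor of lipoprotein lipase, read 13.38, 13.17, 13.18 and 13.46 with OA (13.30 ± 0.148, SD, n = 4), above every one of the 4 WY14643 mice (12.76 ± 0.137). The difference of 0.53 had an SE of 0.0977 (limma adjusted p = 0.000167). Mttp read 13.36, 13.23, 13.40 and 13.29, also above all WY14643 mice (difference 0.32, limma adjusted p = 0.00329), and its second probeset gave 0.41 (limma adjusted p = 0.00601). Sar1b was higher by 0.35 (limma adjusted p = 0.0136), without overlap. Dgat1, which makes triacylglycerol from diacylglycerol, fell by 0.30 (SE 0.0815, limma adjusted p = 0.0069), from 12.08, 12.07, 12.12 and 11.93 with WY14643 to 11.76, 11.60, 11.78 and 11.87 with OA. Apob fell by 0.88 (limma adjusted p = 0.0393), but the OA values of 9.01, 10.78, 10.31 and 9.60 overlapped the WY14643 values of 10.65, 10.77, 11.20 and 10.60, and this call was lost in 5 of the 35 fits that left out 1 array (wild-type OA replicate 1 or 4 or WY14643 replicate 1, 2 or 3, limma adjusted p up to 0.195).

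PPARα-null mice gave calls for 4 of the 10 genes with OA against WY14643, where 31.5% of all genes were called. Apoc2 was higher by 0.47 (limma adjusted p = 0.000914), with OA values of 13.06, 12.73, 13.06 and 12.90 that all lay above the WY14643 values. Mttp (0.37, limma adjusted p = 0.00122) and Sar1b (0.37, limma adjusted p = 0.0123) were higher as well, and Dgat1 fell by 0.33 (limma adjusted p = 0.00389). Apob had a difference of -0.51 (limma adjusted p = 0.249). The calls for these 4 genes were therefore made in mice with and without PPARα. Without the 3 arrays the same 4 genes were called in PPARα-null mice (30.5% of all genes).

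Markers of other cells moved with these comparisons. With OA against WY14643 in PPARα-null mice all 10 pancreatic acinar markers were higher, with a median difference of 4.27, and their summed signal on the linear scale was 75162 to 151815 beside 5470.3 to 20445. In wild-type mice the sums overlapped (23747 to 97721 beside 12136 to 51389) and 0 of the 10 were called by limma. Ileum markers were higher with OA in wild-type mice (3 of 5, 2 without the 3 arrays, summed signal 26379 to 28288 beside 17789 to 23706), and so were 6 of 8 crypt proliferation markers (8809 to 9288 beside 7803 to 8360). Duodenum and jejunum markers went the other way, with 0 higher and 3 lower of 8 (4 lower without the 3 arrays, median -0.43, summed signal 17413 to 18919 beside 21881 to 24535). Because this list holds Cyp2c65, Slc5a1 and Slc40a1, its counts need not mark gut region. Of 9 absorptive enterocyte markers, 1 was higher and 3 were lower. In PPARα-null mice 2 ileum and 5 crypt markers were higher, 3 duodenum and jejunum markers were lower (4 without the 3 arrays), 3 of 8 enteroendocrine markers were lower, and the absorptive enterocyte counts were again 1 higher and 3 lower. Of 9 hepatocyte markers on the array 1, Serpina1b, was expressed, and the summed signal of that list was 47.6 to 101. The part of these markers in the differences between OA and WY14643 was not tested.

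With the omega-3 triacylglycerols the calls against WY14643 in wild-type mice were all decreases. In wild-type mice EPA gave calls for 5 of the 10 genes, all lower (22.1% of all genes were called lower and 45.1% in either direction). Apob, the structural protein of the particle, fell by 1.51 (SE 0.305, limma adjusted p = 0.000255), a 2.85-fold decrease, from 10.80 ± 0.274 (SD, n = 4) to 10.10, 9.19, 9.45, 8.65 and 9.07. Every EPA mouse lay below every WY14643 mouse. Dgat2, the other diacylglycerol acyltransferase, read 10.82, 10.98, 11.33 and 10.78 with WY14643 and 10.46, 10.46, 10.03, 10.10 and 10.14 with EPA, a 1.67-fold decrease without overlap (limma adjusted p = 0.000458), and its second probeset gave a difference of -0.77. Dgat1 (-0.29, limma adjusted p = 0.00424), Apoc3 (-0.23, limma adjusted p = 0.0333) and Apoa1 (-0.19, limma adjusted p = 0.00823) were lower by smaller amounts.

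In PPARα-null mice EPA gave 4 calls, all lower (20.8% of all genes were called lower and 37.8% in either direction): Dgat2 (-0.66, limma adjusted p = 0.00235), Apob (-0.86, limma adjusted p = 0.0306), Dgat1 (-0.22, limma adjusted p = 0.0294) and Apoa1 (-0.19, limma adjusted p = 0.0112). Apob read 10.61, 10.87, 9.87 and 10.52 with WY14643 and 9.44, 9.68, 9.58, 9.58 and 9.74 with EPA. The groups did not overlap, and the 5 EPA mice lay closer together (SD 0.112) than the wild-type EPA mice did (SD 0.539).

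DHA against WY14643 gave 5 calls in wild-type mice, all lower (19.7% of all genes were called lower and 40.5% in either direction). Apob read 10.33, 9.34, 8.52, 9.30 and 8.85 with DHA and fell by 1.54 (limma adjusted p = 0.00032), a 2.90-fold decrease. Apoc3, the inhibitor of lipoprotein lipase, fell by 0.41 (limma adjusted p = 0.000504), from a mean of 13.44 to 13.02 ± 0.0961 (SD, n = 5). Apoa1 (-0.21, limma adjusted p = 0.00589), Dgat1 (-0.24, limma adjusted p = 0.0152) and Apoa4 (-0.14, limma adjusted p = 0.0413) were lower too. In PPARα-null mice 2 of the 10 genes were called, where 19.9% of all genes were (3 with Mttp without the 3 arrays, where 20.7% were). Apob fell by 1.13 (limma adjusted p = 0.0182). Dgat1 was called on its weaker probeset alone, with means of 5.94 for DHA and 4.16 for WY14643, at least 1.92-fold higher over the limit of 32 (limma adjusted p = 0.038), while the main probeset gave -0.17 (limma adjusted p = 0.145).

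Markers of cell types and gut regions differed in these comparisons too. With EPA against WY14643 in wild-type mice all 5 ileum markers were higher (summed signal 26915 to 30957 beside 17789 to 23706), as were 6 of 8 crypt proliferation markers (8974 to 9355 beside 7803 to 8360), while of 9 absorptive enterocyte markers 1 was higher and 3 were lower. With DHA 2 of 5 ileum markers were higher (23034 to 31399, overlapping), 7 of 8 crypt markers were higher and 1 lower (8416 to 9482), and of 9 absorptive enterocyte markers 1 was higher and 4 were lower. In PPARα-null mice 4 ileum markers were higher with each fat (3 with EPA without the 3 arrays), and the crypt markers gave 5 higher with EPA and 4 with DHA. Of the absorptive enterocyte markers, 1 was higher and 3 were lower with EPA and 1 was lower with DHA, and of the duodenum and jejunum markers 1 was higher and 2 were lower with EPA and 3 were lower with DHA. Their part in the differences of the 10 genes was not tested.

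The Apob result rests on 1 probeset. The weaker Apob probeset had group means from 5.93 to 6.87 and was called in no comparison. Its means went the other way, being lowest with WY14643 in wild-type (6.39) and PPARα-null mice (5.93). The main probeset was highest there (10.80 and 10.47). Among genes outside the set, those that ran most like the main Apob probeset over the 35 arrays were Csnk2a1 (r = 0.92), Kdelr1 (0.88), Stx16 (0.86), Gigyf2 (0.86) and Acads (0.85). All points of these correlations share their hybridisation, and the r values without the 3 arrays were 0.92, 0.88, 0.85, 0.85 and 0.84.

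The 3 triacylglycerols were given in the same volume and compared at the same time. In wild-type mice EPA against OA gave calls for 5 of the 10 genes, all lower with EPA, where 8.01% of all genes were called and 4.36% were lower. Apoc2 read 12.75, 12.64, 12.84, 12.76 and 12.69 with EPA, below all 4 OA mice (1.47-fold lower, limma adjusted p = 0.00017). Dgat2 was 1.72-fold lower (limma adjusted p = 0.00166) and Sar1b 1.38-fold lower (limma adjusted p = 0.00366). Mttp, with 12.79, 13.11, 13.00, 12.97 and 12.73, was 1.32-fold lower (limma adjusted p = 0.000887). Apoa4, an apolipoprotein of the particle surface, was 1.16-fold lower (limma adjusted p = 0.00934), though its second probeset missed the threshold (limma adjusted p = 0.0825). With each gene on its probeset of lowest p, the median difference over the 10 genes was -0.34, and that over all genes 0.00. All 5 calls were made in each of the 35 fits that left out 1 array. Of 8 duodenum and jejunum markers 2 were higher with EPA than with OA in these mice, and 2 with DHA (3 without the 3 arrays), where 2 of 9 absorptive enterocyte markers were lower. Their part was not tested.

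DHA against OA gave 4 calls in wild-type mice, all lower with DHA, where 4.56% of all genes were called and 3.15% were lower. Apoc2 read 12.54, 12.77, 12.80, 12.56 and 12.76, below every OA mouse (1.53-fold lower, limma adjusted p = 7.83e-05). Apoa4 (-0.25, limma adjusted p = 0.00412), Sar1b (-0.39, limma adjusted p = 0.0249) and Mttp (-0.27, limma adjusted p = 0.0402) were also called. Dgat2 read 10.44, 10.86, 10.92, 10.62 and 10.46 with DHA beside 11.03, 10.79, 11.25 and 11.02 with OA, which overlapped and gave no call (-0.37, limma adjusted p = 0.264).

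In PPARα-null mice Apoc2 was the 1 gene called with either omega-3 fat against OA. It fell by 0.39 with EPA (limma adjusted p = 0.0207, 3.15% of all genes called) and by 0.38 with DHA (limma adjusted p = 0.0498, 1.31% of all genes called). The second call did not hold without the 3 arrays (-0.34, limma adjusted p = 0.0795) and was lost in 25 of the 35 fits that left out 1 array. Sar1b was called lower for DHA against OA without the 3 arrays (1.79% of all genes called). Without those arrays EPA against OA gave 3 calls (3.22% of all genes), with Mttp (-0.34, limma adjusted p = 0.00909) and Sar1b (-0.41, limma adjusted p = 0.00522) beside Apoc2 (-0.41). At an unadjusted p under 0.01 and with all arrays, EPA against OA gave 3 of the 10 genes (8.47% of all genes) and DHA against OA gave 2 (6.40%). Pancreatic acinar markers had median differences of -2.28 with EPA and -2.16 with DHA in these mice, though 0 of 10 were called. Their summed signal was 10033 to 78597 with EPA and 19753 to 61219 with DHA, beside 75162 to 151815 with OA. Of 8 duodenum and jejunum markers 1 was higher with each fat. The part of these markers was not tested.

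EPA and DHA differ by a pair of carbons and 1 double bond, and limma called 0 of the 10 genes between them in either genotype, where 0.719% of all genes were called in each. At an unadjusted p under 0.05 it gave 2 of the 10 in wild-type mice (Apoc3 and Dgat2) and 0 in PPARα-null mice, beside 16.9% and 12.2% of all genes. Dgat2 alone stayed under 0.01, as did 6.50% of all genes. The largest difference in a main probeset was in wild-type Dgat2, 0.42 higher with DHA, with a 95% interval from 0.12 to 0.72 (limma adjusted p = 0.198). For Apoc3 the interval ran from -0.35 to -0.02, for Mttp from -0.02 to 0.28, for Sar1b from -0.12 to 0.28 and for Apoc2 from -0.23 to 0.13. The interval for Apob, from -0.61 to 0.56, allows a difference in either direction.

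Genes that work beside the set were counted in 6 lists. The COPII and secretion list, with 15 expressed genes of 16 symbols, covered the machinery that Sar1b serves. With OA against WY14643, 8 of the 15 were higher and 0 lower in wild-type mice, where 17.7% of all genes were higher, with a median of 0.32 beside 0.01 over all genes. In PPARα-null mice 10 were higher (9 without the 3 arrays) and 0 lower, where 13.2% of all genes were higher, with a median of 0.27 beside -0.06. Sec24d, a cargo-binding subunit of the coat, was higher by 0.78 in wild-type mice (limma adjusted p = 5.45e-05) and by 0.93 in PPARα-null mice (limma adjusted p = 2.76e-05). Sec23b, its partner in the inner coat, was higher by 0.59 and 0.51, and Surf4, a cargo receptor of the endoplasmic reticulum, by 0.48 and 0.40. With EPA 5 genes of the list were lower than with OA in wild-type mice (median -0.14), namely Sec23a, Surf4, Sec24d, Tfg and Sec24a, and 3 in PPARα-null mice (5 without the 3 arrays), where 4.36% and 1.62% of all genes were lower. With DHA 5 were lower than with OA in wild-type and 0 in PPARα-null mice (1 without the 3 arrays), beside 3.15% and 0.985% of all genes. For EPA against WY14643, 4 were higher and 1 lower (0 without the 3 arrays) in wild-type mice, where 45.1% of all genes were called.

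**Figure D4:**
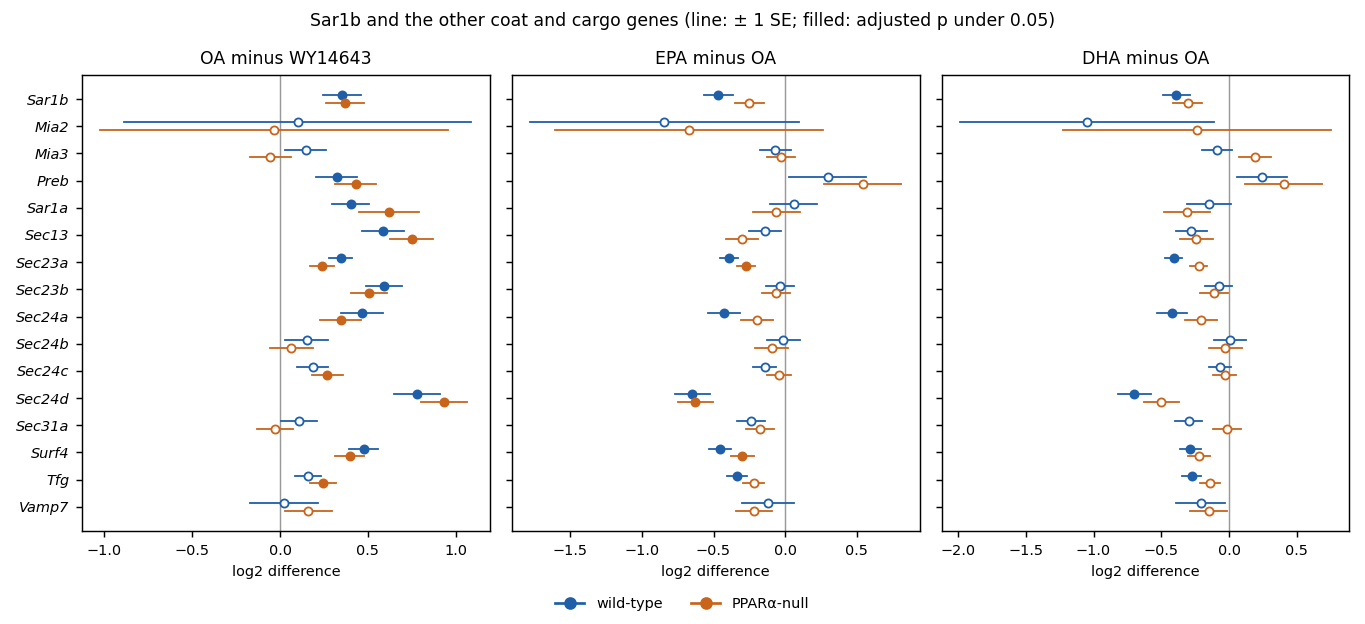
Difference between agonists (log2) in the genes of the COPII and secretion list and Sar1b, each on its expressed probeset of lowest p in that comparison, for wild-type and PPARα-null mice, with lines of 1 SE to either side and filled points where the limma adjusted p was under 0.05. With OA against WY14643, Sec24d has the difference of 0.78 in wild-type and 0.93 in PPARα-null mice, and no filled point lies below 0.

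In the lipidation and lipid droplet list, P4hb, the disulphide isomerase that forms the transfer protein complex with Mttp, differed between the gavages. It was higher with OA than with WY14643 by 0.25 in wild-type (limma adjusted p = 0.00089) and 0.29 in PPARα-null mice (limma adjusted p = 0.00039), and lower with EPA than with OA (-0.24 and -0.21). Plin3, a lipid droplet coat protein, was higher with OA than with WY14643 by 0.86 and 0.62. Of the 11 expressed genes of this list, 3 were higher and 1 lower with OA against WY14643 in wild-type mice, a share near the 33.8% of all genes called. Without the 3 arrays 3 were higher and 3 lower, where 34.7% of all genes were called. In PPARα-null mice 6 were higher and 2 lower, where 31.5% of all genes were called. With EPA against OA 5 genes of the list were lower in wild-type mice (3 without the 3 arrays), where 4.36% of all genes were. In PPARα-null mice 2 were lower (4 without the 3 arrays), where 1.62% of all genes were. Lpcat3, which remodels the phospholipids of the particle surface, was called lower with EPA than with OA in both genotypes, with differences of -0.40 and -0.38.

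The genotypes differed in genes that supply the acyl-CoA and glycerol for this pathway. Under WY14643, 7 of the 8 expressed genes of the monoacylglycerol route and acyl-CoA supply were higher in wild-type mice and 0 lower, where 4.13% of all genes were higher (median 0.63 beside -0.07 over all genes). Mgll, which splits monoacylglycerol, was 3.60-fold higher (limma adjusted p = 4.45e-08), and Fabp1, a fatty acid carrier, was higher by 0.46. Acsl3, an acyl-CoA synthetase, was higher by 1.44. In the lipidation list 3 genes were higher and 1 lower, among them Plin2, the droplet coat protein, at 4.21-fold higher. Agpat2 (0.87) and Gpd1 (0.44) were the 2 of 11 genes of the glycerol-3-phosphate route that were higher. Of 6 expressed genes of other apolipoproteins and plasma handling 0 were called, and of 15 COPII genes 1, Tfg, was higher (0.30).

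Under DHA 2 of the 8 acyl-CoA supply genes were higher in wild-type mice (5 without the 3 arrays), 3 of 11 lipidation genes and 2 of 11 genes of the glycerol-3-phosphate route, where 4.49% of all genes were higher and 8.20% were called in either direction (9.62% without the 3 arrays). Apoa2, an apolipoprotein of high density lipoprotein, was the 1 gene of its list called (2.30 higher), and 2 were called without the 3 arrays. Under EPA 0 genes of these 5 lists were called with all arrays. Without the 3 arrays 3 of the acyl-CoA supply list, 3 of the lipidation list, 1 of the glycerol-3-phosphate route and 1 of the other apolipoproteins were called, all higher, beside 2.07% of all genes. Under OA 0 were called with all arrays, and without the 3 arrays 4, 2, 1 and 0 of the same lists, beside 1.83% of all genes.

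Of the 15 expressed transcription factors in the sixth list, 4 were higher and 5 lower with OA than with WY14643 in wild-type mice, where 17.7% of all genes were higher and 16.2% lower. Each on its probeset of lowest p, Pparg rose by 1.66 (limma adjusted p = 1.9e-07), and Ppara fell by 2.62 (limma adjusted p = 3.77e-05). Xbp1, which governs the secretory pathway, was higher than with WY14643 in wild-type mice by 0.67 with EPA and by 0.61 with DHA, and in PPARα-null mice by 0.55 with OA. Under WY14643 the genotypes differed in 3 higher factors and 1 lower (2 lower without the 3 arrays), where 7.56% of all genes were called, with Nr1h4 (0.98) and Creb3l3 (0.52) higher in wild-type mice and Pparg lower (-0.90).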

How the data were processed

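Intestinal RNA of 35 mice, 4 to 5 per group, was hybridised to Affymetrix mouse arrays with 1 mouse per array. The authors deposited log2 values computed with GCRMA, which corrects background, normalizes between arrays and summarises probes, and these were used unchanged. Its version is not given in the sources used here. Array medians ran from 2.83 to 2.88. The table held 45101 probesets, 34945 of them with 1 gene symbol, which came from the array's annotation table. The number of mice limits the precision.

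Probesets with a log2 group mean above 5 in any of the 8 groups were kept (15384 probesets, 8626 genes). A linear model of 8 group means over all arrays was fitted in limma 3.58.1 (R 4.3.3) with an intensity trend, and the Benjamini-Hochberg adjustment ran over the kept probesets. The fit was tested on simulated data. Named were every member, up to 4 called genes of lowest p per pathway list and comparison, and the 5 genes most like Apob. The remaining genes were picked from values already seen. The members and lists were chosen with earlier results of these data known. The alternatives are given below, and figures were drawn with matplotlib 3.10.9 in Python 3.11.15.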

Additional observations from a re-analysis of the deposited data

Results flagged for a closer look

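In 7 of the 80 combinations of gene and group, 1 array stood far from the others of its group, by a gap that was large against the group's whole range. Chance marks about 1 in 20 such groups. In 2 of the cases the array was 1 of the 3 that went against their genotype label. Mttp read 12.89 on PPARα-null OA replicate 1, where the other arrays read 13.13 to 13.16, and Sar1b read 12.41 on PPARα-null EPA replicate 5, where the others read 11.78 to 11.95. Mttp also read 13.24 on wild-type DHA replicate 3 (12.97 to 13.05 on the others), and Sar1b read 12.49 on wild-type OA replicate 2 (12.62 to 12.64). Apoa4 read 14.25 on wild-type WY14643 replicate 3, beside 14.30 to 14.31. Apoc3 read 13.37 on wild-type OA replicate 1, beside 13.26 on each of the other 3 arrays to this precision. Mogat2 read 11.15 on PPARα-null WY14643 replicate 1, beside 11.21 to 11.22.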

How the results depend on the processing

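None of the 38 calls changed direction under the alternatives run, where 37 were recomputed with a limit of log2 6 and with 1 probeset per gene and all 38 otherwise. The larger changes in the counts of genes called are listed here, with the value reported first, and smaller ones only for the 3 arrays. Without the 3 arrays against their label, which was chosen after seeing the data, the genotype counts went from 0 to 1 (EPA), 0 to 2 (DHA) and 0 to 2 (OA). The shares of all genes were then 2.07%, 9.62% and 1.83%. Under WY14643 the genotype count went from 2 to 3 (8.51% of all genes). In PPARα-null mice EPA against OA went from 1 to 3 (3.22%), EPA against WY14643 from 4 to 5 (35.6%) and DHA against WY14643 from 2 to 3 (20.7%). For the genotype difference under DHA the count of 0 became 1 with a limit of log2 6, with quantile normalization and with 1 probeset per gene. At an unadjusted p under 0.01 it was 3 under DHA (13.3% of all genes) and 3 under OA (5.30%). The same rule gave 1 for DHA against EPA in wild-type mice (6.50%), and 3 (8.47%) and 2 (6.40%) for EPA and DHA against OA in PPARα-null mice. Without a filter on the level, DHA against OA in wild-type mice gave 2, and in PPARα-null mice the counts were 0 for DHA against OA, 2 for EPA and 1 for DHA against WY14643. Fitting only the groups compared gave 0 for EPA and 0 for DHA against OA in PPARα-null mice. The latter was also 0 without the trend, with quantile normalization and with array weights. Array weights gave 8 for OA and 4 for DHA against WY14643 in PPARα-null mice, where a limit of log2 6 and 1 probeset per gene gave 1 for DHA. Counts without a percentage have no share of all genes beside them here, so they are not read as particular to the set. The causes were not tested.

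Leaving out 1 array at a time reversed no call and kept 23 of the 38 calls in every fit. Of the rest, Sar1b for OA against WY14643 in PPARα-null mice was lost without OA replicate 3, Dgat1 for DHA against WY14643 in wild-type mice without DHA replicate 5 or WY14643 replicate 3, and Apob for DHA against WY14643 in PPARα-null mice without DHA replicate 4 or WY14643 replicate 2. Lost in 3 fits were Apoc2 for EPA against OA in PPARα-null mice (OA replicate 1 or 3, EPA replicate 3) and Dgat1 for EPA against WY14643 in PPARα-null mice (EPA replicate 4, WY14643 replicate 3 or 4). In 5 to 7 fits, each without an array of a group compared, the calls lost were Apoc3 and, in PPARα-null mice, Apob for EPA against WY14643, Sar1b and Mttp for DHA against OA, Apoa4 and, in PPARα-null mice, the weaker Dgat1 probeset for DHA against WY14643. The genotype counts ran from 0 to 3 (WY14643), 0 to 0 (EPA), 0 to 2 (DHA) and 0 to 1 (OA). In wild-type mice they ran from 5 to 5 for EPA against OA, 2 to 4 for DHA against OA, 0 to 0 for DHA against EPA, and 4 to 5, 4 to 5 and 3 to 6 for OA, EPA and DHA against WY14643. In PPARα-null mice the ranges were 0 to 4, 0 to 1 and 0 to 0, and 3 to 5, 2 to 5 and 0 to 4. The interactions stayed at 0.

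The labels number the replicates within groups. For 17 pairs of arrays, wild-type and PPARα-null with the same agonist and number, the deviations from the group means were correlated. The correlations ran from -0.44 to 0.55 and exceeded 0.1 in 6. The WY14643 pairs gave 0.29, 0.34, 0.55 and 0.09. Pairs with different numbers were not compared, so whether arrays of the same number shared a batch was not tested. With the replicate number as a block 37 of the 38 calls were made, without Mttp for DHA against OA in wild-type mice (-0.26, limma adjusted p = 0.06).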
